A study of Mus musculus with 9 samples.

Results

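Chemokines are small secreted or membrane-bound proteins that draw leukocytes towards their source by binding G protein-coupled receptors. The 56 genes described here are those whose annotated mouse symbol starts with Ccl, Cxcl, Cx3cl, Xcl, Ccr, Cxcr, Cx3cr, Xcr or Ackr followed by a digit, of 19858 genes with a single-symbol probe set. They comprise 34 ligands and 22 receptors. Choice by symbol used no measured value, although the set was picked with earlier results of these data known. Expression was measured in primary cultures from the interscapular brown fat of male C57BL/6 mice aged 5 weeks, grown with insulin from a precursor-enriched fraction and collected at about 9 days in vitro. Each of the 3 groups held 3 cultures, numbered by subject: vehicle (DMSO, subjects 1 to 3), HA155 (2.5 µM, subjects 4 to 6), which inhibits autotaxin, and lysophosphatidic acid in its 1-oleoyl form (LPA, 5 µM, subjects 7 to 9). Autotaxin is the secreted enzyme that produces LPA, and the design asks which genes respond to the inhibitor and which to the lipid. No genotype or transgene is named for any group, and how long the compounds were present is not settled by the labels.

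Chemokines are classed by the spacing of their first cysteines (CC, CXC, CX3C and XC), and most receptors recognise several ligands of their class. In fat tissue, adipocytes, their precursors and resident immune cells all make them, and ligands such as Ccl2 are known for recruiting monocytes in obesity. Inflammatory ligands are commonly induced through NF-kB and interferon signalling, whereas homeostatic ones such as Cxcl12 are made steadily by stromal cells. Atypical receptors (Ackr) bind chemokines without G protein signalling and scavenge them.

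Values are log2 of the deposited intensity, and a difference of 1 is a doubling. A gene was tested where its mean over the 9 arrays reached 5.59, the 40th percentile of all probe sets, and it was called at a limma adjusted p below 0.05. Genes near that level lie close to background. The number of arrays limits the precision, with a median standard error of 0.08 for a difference, and an exact test of 1 gene with 3 arrays against 3 cannot go below p = 0.1. LPA arrays stood apart from the others on the first principal component, which held 66.7% of the variance, and LPA array 8 lay farthest out. In cultures, fewer cells of a type and less RNA per cell cannot be told apart.

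With LPA, 9 of the 19 ligands tested rose and 1 fell, while none of the 6 receptors tested passed, so that 10 of 25 tested members were called against 23% of all genes. Of all 13335 genes tested in that comparison, 12.2% rose and 10.8% fell. Cxcl5, Ccl9 and Ccl7 rose by more than 1 on the log2 scale, and Cxcl9 was the ligand that fell. With HA155, Ccl9 and Cxcl13 rose and Cxcl9 fell, against 0.607% of all genes that rose and 0.427% that fell (3 of 25 members called, 1.03% of all genes called either way). Between LPA and HA155, 9 ligands were higher with LPA and 1 was lower, against 13.7% and 12.4% of all genes (26.1% either way). Groups did not overlap for 11 of the 25 members between LPA and control (33.1% of all genes), for 9 between HA155 and control (16.8%) and for 12 between LPA and HA155 (38.7%). The median difference over the 25 tested chemokine and receptor genes was 0.11 for LPA against control, beside 0.0052 over all genes, and -0.02 for HA155 against control, beside 0.0018. The HA155 and LPA comparisons share their 3 control arrays, so that a control value that is high or low by chance moves both the same way. The LPA against HA155 comparison does not use those arrays except for the shared estimate of the spread.

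**Figure D1:**
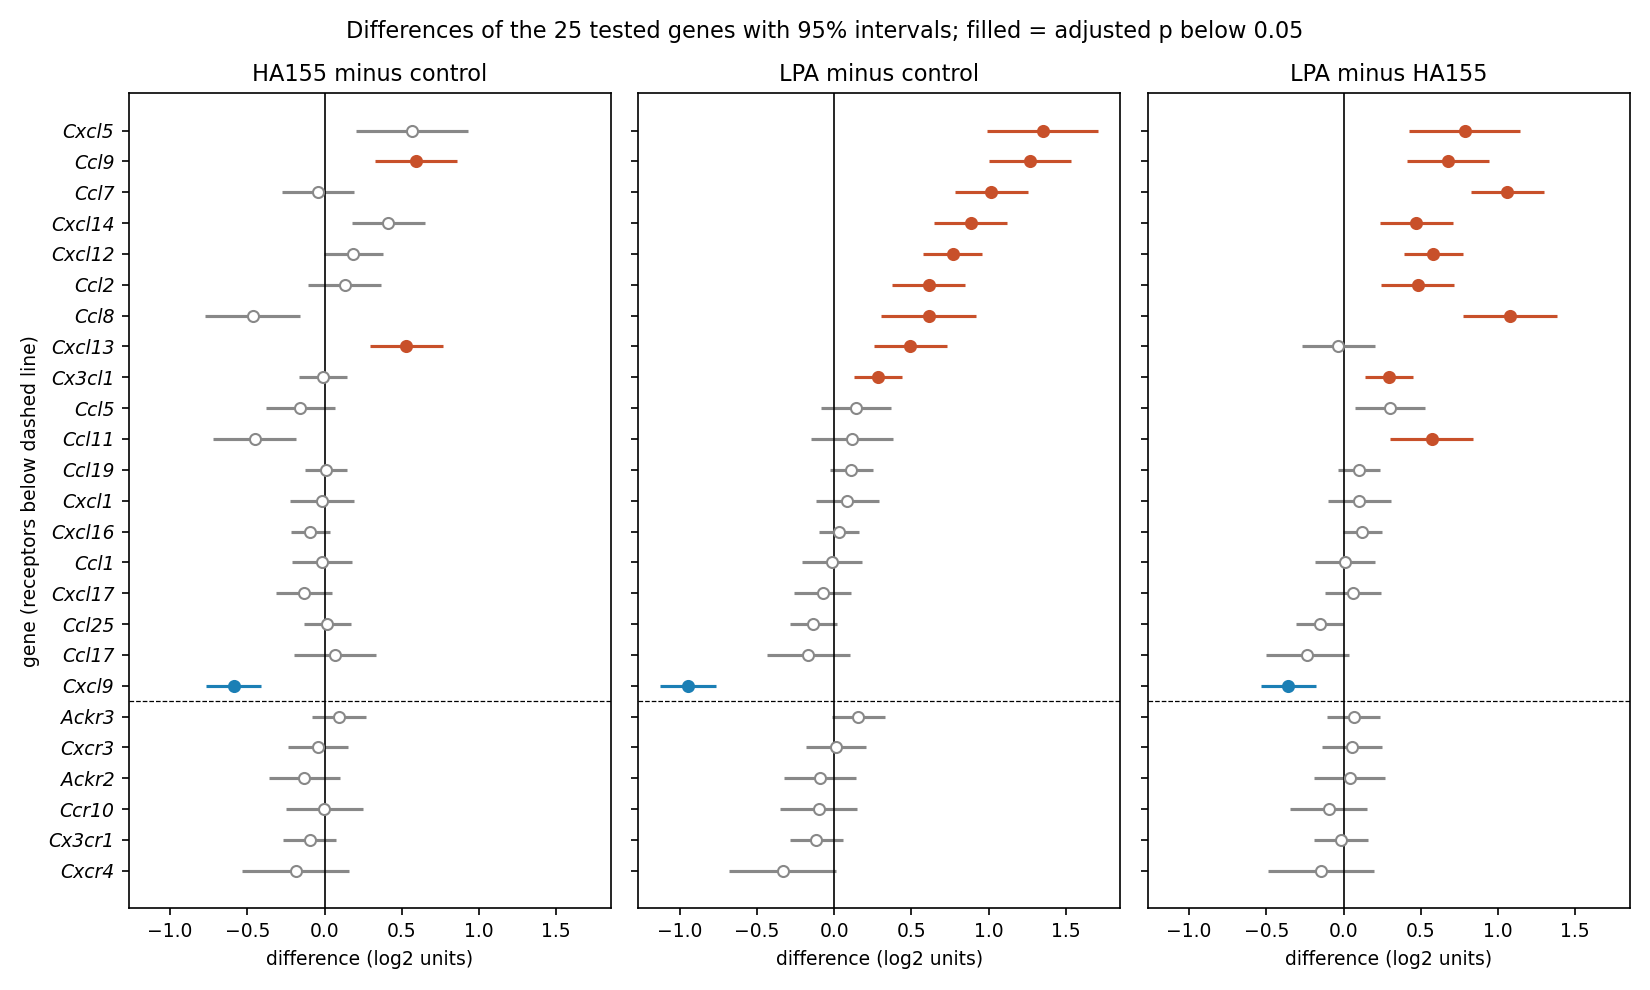
Differences (log2 units, horizontal axis) of the 25 tested genes, each a row, for HA155 minus control, LPA minus control and LPA minus HA155. Points are differences, lines 95% intervals, and filled points have a limma adjusted p below 0.05. Receptors lie below the dashed line, where no point is filled, and Cxcl9 is the single ligand filled to the left of 0.

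The RefSeq table of promoters (GRCm38.p6, 250 bases before to 50 after a gene's start) held 42 of the 56 genes, with 44 promoter windows, and 5 motifs were searched in them on both strands. The motifs were the kappa-B consensus of NF-kB, the interferon-stimulated response element (ISRE, GAAANNGAAA), the STAT site GAS (TTCNNNGAA), the AP-1 site (TGANTCA) and the CArG box of serum response factor. Kappa-B matches lay in 9 of the 44 windows (20.5%) and in 4.51% of all 32851 windows. Of the 18 windows of tested genes 3 held one, those of Ackr2, Ccl9 and Cxcl1, and only Ccl9 was called among them. The called ligands Ccl2, Ccl7, Ccl11 and Cxcl5 had no window in that set of promoters. For ISRE the shares were 3 of 44 (6.82%) and 3.44%, for GAS 4 of 44 (9.09%) and 8.30%, and for AP-1 7 of 44 (15.9%) and 7.81%. CArG matches were in 0 of 44 windows and in 1.63% of all. Matches are descriptions of letters, and windows of neighbouring duplicated genes share sequence. Windows are printed below beside their genes, in lower case with matches in capitals.

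All 3 tested ligands grouped here as monocyte attractants rose with LPA, whereas Ccl5, placed in another group, did not pass. Ccl7, which attracts monocytes through Ccr2, measured 8.09, 7.75 and 8.00 in the control arrays, 7.73, 8.09 and 7.89 with HA155, and 8.92, 9.06 and 8.91 with LPA. All LPA arrays lay above every other array, and control and HA155 overlapped. The rise with LPA was 1.02 (SE 0.11, limma adjusted p = 5.25e-05), a 2.02-fold change, and LPA exceeded HA155 by 1.06 (limma adjusted p = 2.83e-05). HA155 differed from control by -0.04, with a 95% interval of -0.28 to 0.19. Ccl2, the main monocyte chemoattractant, measured 7.03, 6.90 and 6.75 in control, 6.77, 7.16 and 7.14 with HA155, and 7.45, 7.60 and 7.47 with LPA. It too was highest in the 3 LPA arrays, with a rise of 0.61 (SE 0.11, limma adjusted p = 0.00166) over control and 0.48 (limma adjusted p = 0.00635) over HA155. Its HA155 and control values overlapped, with a difference of 0.13.

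Ccl8, a CC ligand grouped here with them, measured 6.03, 5.63 and 5.92 in control, 5.29, 5.40 and 5.49 with HA155, and 6.26, 6.36 and 6.80 with LPA. The 3 groups did not overlap, with HA155 lowest and LPA highest. LPA exceeded control by 0.61 (SE 0.14, limma adjusted p = 0.00812) and HA155 by 1.08 (limma adjusted p = 0.000169), but the HA155 mean of 5.39 lay under the level of 5.59, so that the size of the second difference is uncertain. The difference of -0.47 between HA155 and control did not pass (limma adjusted p = 0.256). Ccl12, a mouse Ccr2 ligand, was under that level, with a mean of 4.48 over the arrays.

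Ccl11, the eosinophil-attracting eotaxin, followed another order. It measured 8.49, 8.38 and 8.55 in control, 8.13, 7.83 and 8.09 with HA155, and 8.63, 8.31 and 8.82 with LPA. The HA155 arrays were the lowest 3, while control and LPA overlapped. LPA exceeded HA155 by 0.57 (SE 0.12, limma adjusted p = 0.00487), but LPA against control was 0.12 (limma adjusted p = 0.55). HA155 against control was -0.45 (limma adjusted p = 0.18, and 0.0355 to 0.56 over 18 alternative fits). It passed without LPA array 8, which enters that comparison only through the spread (adjusted p = 0.0358), and with array weights. The other eotaxins, Ccl24 and Ccl26, were under the level of 5.59 with means of 5.57 and 5.02.

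**Figure D2:**
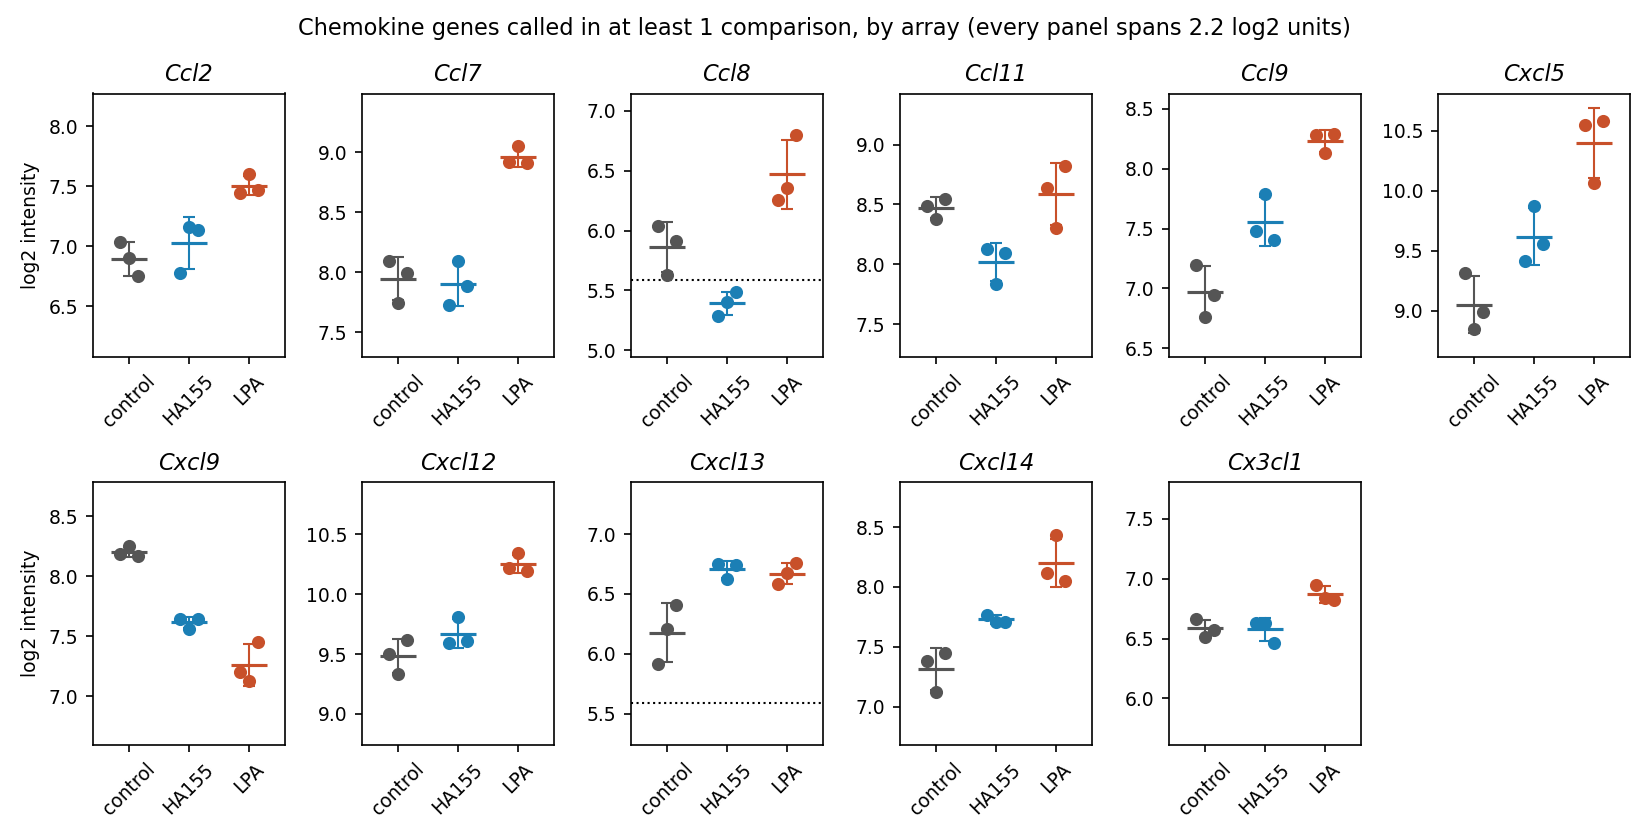
Log2 intensity (vertical axis) of the 11 ligands called in at least 1 comparison, in each of the 9 arrays by group. Points are arrays, bars the mean and SD of 3, and all panels have the same span. Dotted lines mark the intensity filter of 5.59, under which all 3 HA155 arrays of Ccl8 lie. Ccl9, Cxcl5 and Cxcl14 step up from control through HA155 to LPA, and Cxcl9 steps down. The step from control to HA155 did not pass for Cxcl5 and Cxcl14.

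Ccl9, a mouse ligand of Ccr1 that attracts myeloid cells, measured 7.20, 6.76 and 6.94 in control, 7.48, 7.79 and 7.40 with HA155, and 8.28, 8.13 and 8.29 with LPA. The groups did not overlap, and HA155 lay between the others. The rise was 1.27 with LPA (SE 0.12, limma adjusted p = 2.57e-05) and 0.59 with HA155 (SE 0.12, limma adjusted p = 0.0485), and LPA exceeded HA155 by 0.68 (limma adjusted p = 0.00155). The call with HA155 was narrow. It was lost with no filter and with only the 6 compared arrays fitted. Leaving out control 2 or 3, HA155 array 4, 5 or 6, or LPA array 7 or 9 also ended it. In all, 9 of 18 alternative fits lost the call (adjusted p 0.01 to 0.221 over all 18). The Ccl9 window is shown because Ccl9 was called in all 3 comparisons, and it holds an AP-1 match at position -53 and a kappa-B match, on the other strand, at -35, counted from the gene's start.
Ccl9, chr11:83578587-83578886, strand -: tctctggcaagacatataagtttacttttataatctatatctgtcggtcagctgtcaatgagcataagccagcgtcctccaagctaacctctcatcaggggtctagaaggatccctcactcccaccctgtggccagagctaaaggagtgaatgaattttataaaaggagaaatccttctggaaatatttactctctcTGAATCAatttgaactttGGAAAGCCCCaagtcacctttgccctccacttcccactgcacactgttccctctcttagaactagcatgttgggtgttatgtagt

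The genes beside Ccl9 in its cluster were not called. Ccl5, a T cell and monocyte attractant, measured 6.29, 6.71 and 6.45 in control, 6.26, 6.38 and 6.33 with HA155, and 6.76, 6.61 and 6.51 with LPA. LPA and HA155 did not overlap, with a difference of 0.30 (SE 0.10) that missed the threshold (limma adjusted p = 0.051) and passed in 6 of 17 alternative fits (adjusted p 0.0204 to 0.166). These included the fits without control 1, control 2 or LPA array 9. Against control, Ccl5 measured 0.14 with LPA and -0.16 with HA155, and neither passed. Ccl3, Ccl4 and Ccl6 had means of 5.36, 5.42 and 5.33 and were not tested.

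Among ligands of the neutrophil receptor Cxcr2, Cxcl5 had the largest rise of all 25 tested genes. It measured 9.32, 8.85 and 8.99 in control, 9.41, 9.88 and 9.56 with HA155, and 10.55, 10.07 and 10.58 with LPA. The groups did not overlap, and HA155 again lay in the middle. LPA exceeded control by 1.35 (SE 0.16, limma adjusted p = 0.000133), or 2.55-fold, and HA155 by 0.78 (limma adjusted p = 0.00421). HA155 against control was 0.57, which did not pass (limma adjusted p = 0.23) but did with array weights (adjusted p = 0.0389, with a range of 0.0389 to 0.658 over 18 fits).

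Cxcl1, a classical NF-kB-induced Cxcr2 ligand, did not pass in any comparison. It measured 6.80, 6.96 and 6.93 in control, 6.67, 7.03 and 6.93 with HA155, and 7.08, 6.93 and 6.93 with LPA. The 3 groups overlapped. LPA against control was 0.09, with a 95% interval of -0.12 to 0.29, beside 0.99 to 1.71 for Cxcl5. Cxcl2, Cxcl3 and Cxcl15 were under the level of 5.59 with means of 4.05, 4.58 and 3.62. The Cxcl1 window is shown because it is one of the 9 with a kappa-B match. Here the capitals are a pair of overlapping matches, one on each strand, at positions -71 and -70.
Cxcl1, chr5:90890995-90891294, strand +: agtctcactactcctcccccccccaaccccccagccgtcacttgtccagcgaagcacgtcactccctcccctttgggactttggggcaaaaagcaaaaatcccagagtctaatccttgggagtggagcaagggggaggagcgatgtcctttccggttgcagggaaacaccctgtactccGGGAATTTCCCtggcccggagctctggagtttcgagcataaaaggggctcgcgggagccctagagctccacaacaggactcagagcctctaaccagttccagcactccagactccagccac

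Cxcl9 is an interferon-gamma-induced ligand of the T cell receptor Cxcr3, and it was the single member that fell. It measured 8.19, 8.25 and 8.17 in control, 7.64, 7.56 and 7.64 with HA155, and 7.20, 7.12 and 7.45 with LPA. The groups did not overlap, with control highest and LPA lowest. It fell by 0.95 with LPA (SE 0.08, limma adjusted p = 1.29e-05) and by 0.59 with HA155 (SE 0.08, limma adjusted p = 0.00677). LPA lay below HA155, at -0.36 (limma adjusted p = 0.00716). The call with HA155 was lost without control 2 (adjusted p = 0.0523, with a range of 0.000268 to 0.0523 over 18 fits), and the size stayed between -0.61 and -0.55.

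Cxcl10 and Cxcl11, the other ligands of Cxcr3, lay under the level of 5.59 with means of 5.46 and 4.77, and Cxcr3 itself measured 5.87 ± 0.19 in control, 5.83 ± 0.02 with HA155 and 5.89 ± 0.07 with LPA (SD, n = 3). No change of Cxcr3 passed. Cxcl9 and Cxcl10 are neighbours on chromosome 5, and their windows are shown because they differ in their matches. That of Cxcl9 holds a single AP-1 match, at position 32. That of Cxcl10 holds an ISRE match at -213, kappa-B matches at -159 and -103 and an AP-1 match at -74.
Cxcl9, chr5:92328030-92328329, strand -: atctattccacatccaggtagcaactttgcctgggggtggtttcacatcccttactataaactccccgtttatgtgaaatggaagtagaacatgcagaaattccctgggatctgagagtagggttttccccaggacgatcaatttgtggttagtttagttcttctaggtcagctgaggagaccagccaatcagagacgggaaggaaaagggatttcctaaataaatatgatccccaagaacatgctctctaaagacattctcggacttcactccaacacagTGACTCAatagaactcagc
Cxcl10, chr5:92348840-92349139, strand -: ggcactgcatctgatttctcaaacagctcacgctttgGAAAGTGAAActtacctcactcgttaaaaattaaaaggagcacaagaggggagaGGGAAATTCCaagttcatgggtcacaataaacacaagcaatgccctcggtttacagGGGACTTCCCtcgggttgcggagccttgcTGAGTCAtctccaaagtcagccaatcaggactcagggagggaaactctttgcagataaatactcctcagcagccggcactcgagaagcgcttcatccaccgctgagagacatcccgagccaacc

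The CXC ligands Cxcl12, Cxcl13 and Cxcl14, which many tissues make without inflammation, each rose with LPA. Other ligands did not: the CXC ligand Cxcl17 measured -0.07 with LPA (limma adjusted p = 0.57), and Ccl19 and Ccl25 did not pass either. Cxcl12, the stromal ligand of Cxcr4 and Ackr3 that retains stem cells and leukocytes, measured 9.51, 9.33 and 9.62 in control, 9.59, 9.81 and 9.61 with HA155, and 10.22, 10.34 and 10.20 with LPA. Every LPA array was above all others. The rise was 0.77 over control (SE 0.09, limma adjusted p = 8.16e-05) and 0.58 over HA155 (limma adjusted p = 0.000466), and HA155 against control measured 0.19 (limma adjusted p = 0.635). Its receptors did not pass. Cxcr4 measured 5.63, 5.73 and 6.34 in control, 5.81, 5.62 and 5.71 with HA155, and 5.44, 5.71 and 5.55 with LPA, with control 3 apart from the rest and an LPA mean of 5.57 under the filter level. Cxcr4 with LPA measured -0.33, with a 95% interval of -0.68 to 0.01. Ackr3, which scavenges Cxcl12, measured 0.16 with LPA (limma adjusted p = 0.187) from a control mean of 5.54, also under that level.

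Cxcl14, a ligand widely made by epithelia and brown fat, measured 7.38, 7.12 and 7.45 in control, 7.77, 7.71 and 7.71 with HA155, and 8.11, 8.43 and 8.05 with LPA. The groups did not overlap. It rose by 0.88 with LPA (SE 0.11, limma adjusted p = 0.000127) and stood 0.47 above HA155 (limma adjusted p = 0.0068). HA155 against control was 0.41 and did not pass (limma adjusted p = 0.152, and 0.00842 to 0.501 over 18 fits), but it passed without LPA array 8 (adjusted p = 0.0346) and with array weights. Its window is shown because it was the member with both a GAS match, at -191, and an ISRE match, at -172.
Cxcl14, chr13:56296502-56296801, strand -: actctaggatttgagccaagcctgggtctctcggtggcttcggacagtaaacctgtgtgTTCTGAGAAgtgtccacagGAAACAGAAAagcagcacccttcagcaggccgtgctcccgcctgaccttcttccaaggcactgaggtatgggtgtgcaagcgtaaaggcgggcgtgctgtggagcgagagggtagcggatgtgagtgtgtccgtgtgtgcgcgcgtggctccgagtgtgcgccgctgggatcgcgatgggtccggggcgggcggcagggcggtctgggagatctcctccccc

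Cxcl13, which guides B cells through Cxcr5, measured 5.91, 6.21 and 6.40 in control, 6.75, 6.62 and 6.74 with HA155, and 6.58, 6.67 and 6.76 with LPA. Both treated groups lay above control and overlapped each other. It rose by 0.53 with HA155 (SE 0.11, limma adjusted p = 0.0475) and by 0.49 with LPA (SE 0.11, limma adjusted p = 0.00627). LPA against HA155 was -0.03, with a 95% interval of -0.27 to 0.20. The call with HA155 was lost with no filter and with only the 6 compared arrays fitted. Leaving out control 1 or 2, or any 1 of the HA155 and LPA arrays, also ended it. In all, 10 of 17 alternative fits lost the call (adjusted p 0.0073 to 0.22 over the 17). Cxcr5 lay under the level of 5.59 with a mean of 3.73.

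Of the transmembrane ligands, Cx3cl1 (fractalkine, which tethers monocytes) rose and Cxcl16 was not called. Cx3cl1 measured 6.66, 6.52 and 6.57 in control, 6.63, 6.63 and 6.47 with HA155, and 6.95, 6.84 and 6.82 with LPA. The LPA arrays were the highest 3. Its rise of 0.28 over control (SE 0.07, limma adjusted p = 0.0126) was the smallest of the 9 and was lost without control 2 (adjusted p = 0.0581, with a range of 0.0121 to 0.0581 over 17 fits). LPA exceeded HA155 by 0.29 (limma adjusted p = 0.0093). Cxcl16, a scavenger receptor as well as a ligand of Cxcr6, measured 7.42 ± 0.02, 7.33 ± 0.06 and 7.45 ± 0.06 in control, HA155 and LPA (SD, n = 3), and no comparison passed.

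The 8 tested ligands called in no comparison were Ccl1, Ccl5, Ccl17, Ccl19, Ccl25, Cxcl1, Cxcl16 and Cxcl17. Their differences ran from -0.17 (Ccl17) to 0.14 (Ccl5) for LPA against control and from -0.16 (Ccl5) to 0.07 (Ccl17) for HA155 against control. The widest 95% limits among them were -0.43 and 0.37 for LPA and -0.38 and 0.33 for HA155, so that changes of that size could have been missed. Ccl19, a dendritic cell and T cell attractant, had 5 probe sets with differences of 0.11 to 0.15 for LPA, and near-identical copies of its gene make the assignment uncertain. Without LPA array 8 it passed (difference 0.17, adjusted p = 0.0457, where its 18 fits reached up to 0.435). Ccl25, a gut-homing ligand, measured -0.14 with LPA and passed without LPA array 9 (difference -0.20, adjusted p = 0.0492, with its 17 fits reaching up to 0.411). Against HA155, LPA left Ccl25 at -0.15, which also passed without array 9 (adjusted p = 0.0306, up to 0.374 over the 17). A dimmer probe set of Ccl25, not tested by itself, measured -0.24 for LPA against control and -0.19 for LPA against HA155.

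Receptors were dim throughout. Of 22, 16 lay under the level of 5.59, with means from 3.12 (Cxcr2) to 5.57 (Ccr7), and these include Ccr1, Ccr2, Ccr3 and Cxcr2, through which Ccl9, Ccl2 and Ccl7, Ccl11 and Cxcl5 act. The 6 tested receptors were Cx3cr1, Ccr10, Cxcr3, Cxcr4, Ackr2 and Ackr3, with means from 5.62 to 6.38, and 0 passed in limma in any comparison, nor had any an unadjusted p below 0.05 (0 of 6 each). Cx3cr1, the receptor of Cx3cl1, measured 6.45 ± 0.07, 6.35 ± 0.10 and 6.33 ± 0.12 in control, HA155 and LPA (SD, n = 3). Ackr2, a scavenger of inflammatory CC ligands, measured 5.79 ± 0.06, 5.66 ± 0.16 and 5.70 ± 0.20, and Ccr10, a receptor of skin-homing T cells, 6.26 ± 0.16, 6.26 and 6.16 ± 0.24. The 3 HA155 arrays held 1 identical value for Ccr10, so no spread is given there. Receptor differences ranged from -0.33 to 0.16 for LPA against control and from -0.19 to 0.09 for HA155 against control.

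**Figure D3:**
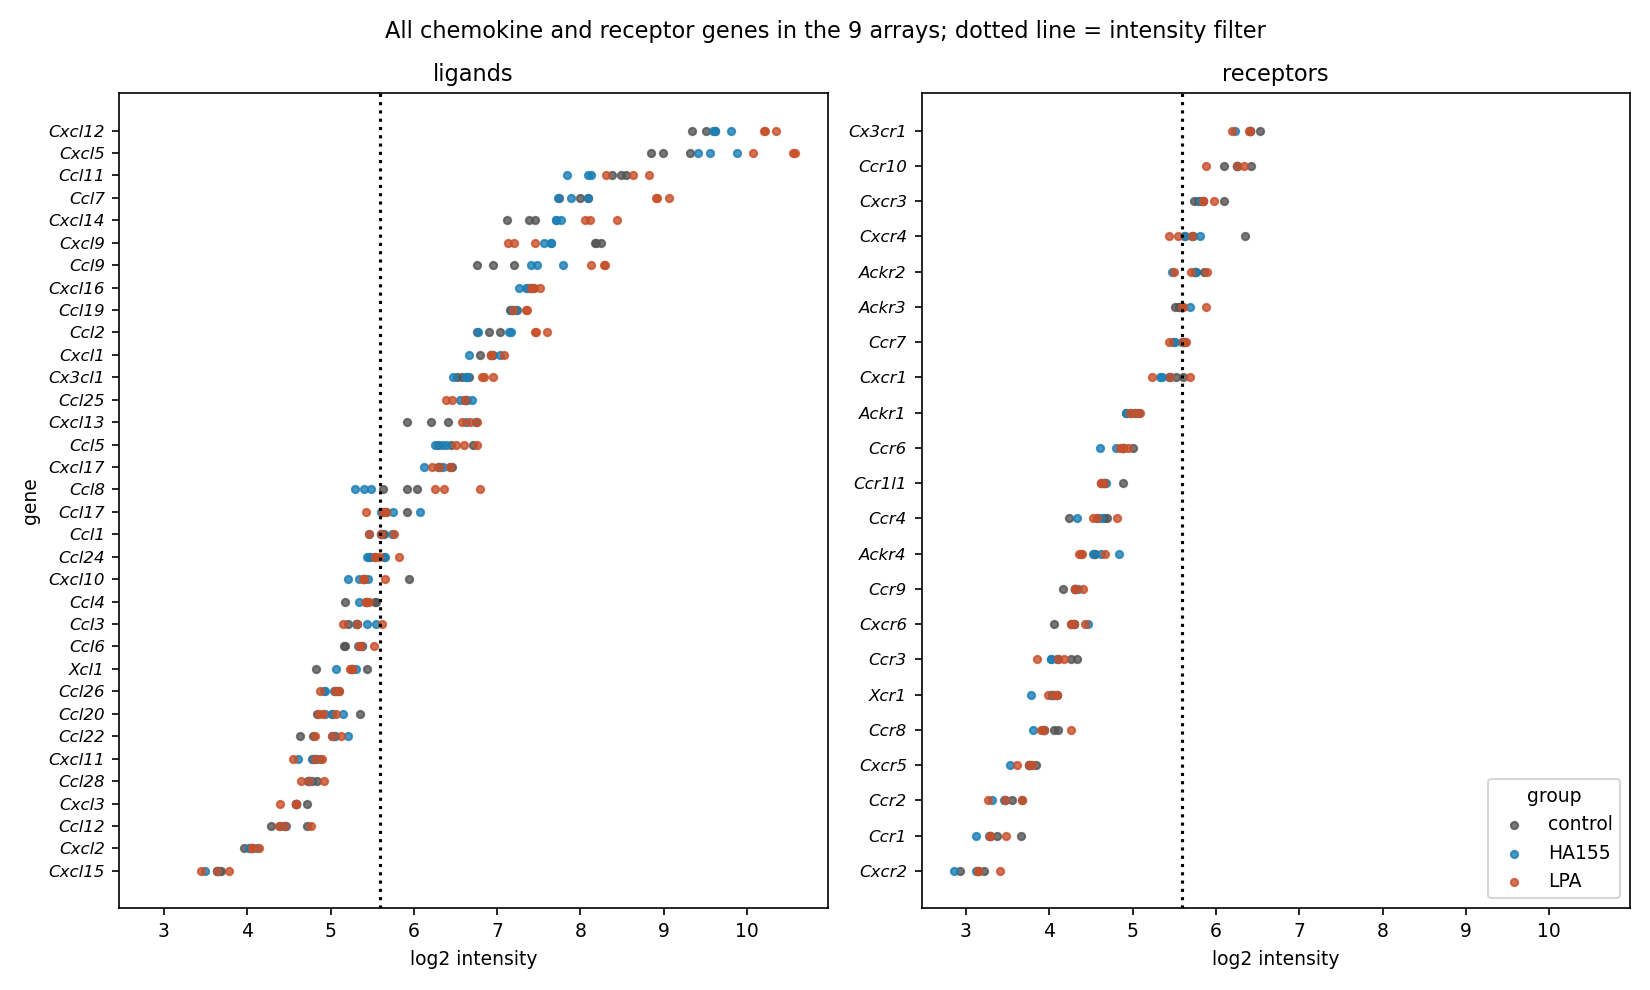
Log2 intensity (horizontal axis) of all 34 ligands and 22 receptors (rows) in the 9 arrays, coloured by group, with the filter of 5.59 as a dotted line. Rows are sorted by mean for reading, since levels of different probe sets are not comparable. Of the ligands 19 lie above the line on average and of the receptors 6, close to it.

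In all, 31 genes were under the filter, 15 ligands and 16 receptors, and were not tested. Fitted without the filter, none of them was called, and the lowest adjusted p was 0.688 for HA155 against control, 0.181 for LPA against control and 0.286 for LPA against HA155 (limma).

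Neighbouring genes were called in some cases and not in others. By Entrez identifier 55 of the 56 genes matched a protein-coding RefSeq gene, and 34 of these lay in 9 runs of neighbouring members with at most 2 other protein-coding genes between them. On chromosome 11 the order was Ccl2, Ccl7, Ccl11, Ccl12, Ccl8 and Ccl1. Within that run Ccl2, Ccl7 and Ccl8 rose with LPA, Ccl11 and Ccl1 did not pass (0.12 and -0.01), and Ccl12 was too dim to test. Ccl1 itself lay close to the filter, with a mean of 5.61. In the next run of that chromosome (Ccl5, Ccl9, Ccl6, Ccl3, Ccl4) Ccl9 was called, Ccl5 did not pass and the other 3 were too dim to test. On chromosome 5, Cxcl5 rose while Cxcl1, in the same run, did not pass and Cxcl3, Cxcl15 and Cxcl2 were too dim to test.

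**Figure D4:**
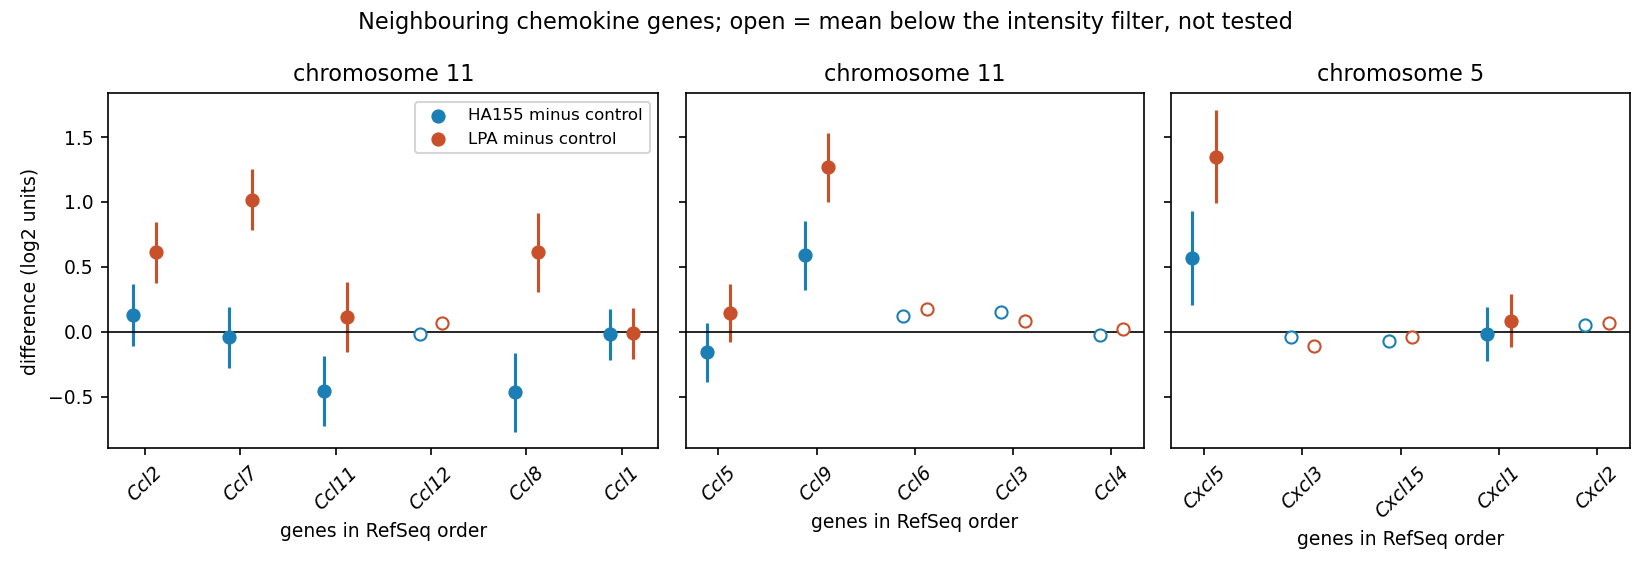
Differences from control (log2 units, vertical axis) of ligand genes in RefSeq order in 3 runs of neighbours, for HA155 and LPA. Points are differences, lines 95% intervals, and open points are genes under the intensity filter with no test. Ccl9 and Cxcl5 stand above their neighbours, and the HA155 intervals of Ccl11 and Ccl8 lie below 0, although neither passed after adjustment.

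Genes that act with chemokines were read from 5 lists. Over all 13335 genes tested, the shares to read their counts against are 12.2% that rose and 10.8% that fell with LPA (median 0.0052), and 0.607% and 0.427% with HA155 (median 0.0018). Among chemokine-like genes under other symbols and leukocyte adhesion ligands, 4 of 11 tested rose and 2 fell with LPA (12.2% and 10.8% of all genes), with a median of 0.15, and 0 passed with HA155 in limma (2 with an unadjusted p below 0.05). Icam1 and Vcam1, on which leukocytes adhere, rose by 0.58 and 0.57 (limma adjusted p = 0.000111 and 0.00036). Cmtm3, of a chemokine-like family, rose by 0.61 (limma adjusted p = 0.000649). Rarres2, which encodes the adipokine chemerin, fell by 0.50 (limma adjusted p = 5.12e-05), and its receptor Cmklr1 fell by 0.35 (limma adjusted p = 0.0129, with the call lost without control 2). Pf4, Ppbp and the chemerin-binding Ccrl2 were under the filter, with group means no higher than 5.44, 3.26 and 4.82.

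Of the proteoglycans, sulfatases and proteases that hold or trim chemokines, 19 of 35 tested rose with LPA and none fell (12.2% and 10.8% of all genes), with a median difference of 0.33 beside 0.0052 over all genes. With HA155 0 of 35 passed in limma (4 with an unadjusted p below 0.05), with a median of -0.05. Mmp3 and Mmp14, proteases known to cut chemokines, rose by 1.20 and 0.67 (limma adjusted p = 1.29e-06 and 4.95e-05). Sulf1, a heparan sulfate sulfatase, rose by 0.95, the proteoglycan Vcan by 0.78 and the cathepsin Ctsk by 0.82.

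In the NF-kB list, which also holds upstream receptors and genes such as Zfp36 and Cebpd, 8 of 39 tested genes rose with LPA. None fell, and the median was 0.06. Of all genes 12.2% rose and 10.8% fell, and 23% were called either way. The number called either way in this list was thus near the background, but every call was a rise. With HA155 0 of 39 passed in limma, and 0 had an unadjusted p below 0.05. Zfp36, which speeds decay of cytokine mRNAs, rose by 0.82 (limma adjusted p = 1.32e-05), Cebpd by 0.79, the TNF receptor gene Tnfrsf1b by 0.67, the Tlr4 co-receptor gene Ly96 by 0.61 and Irak3, a brake on Toll-like signalling, by 0.56. Nfkbia, the NF-kB inhibitor and target, measured 0.15 with LPA (limma adjusted p = 0.162, and 0.0262 without LPA array 7, with a range of 0.0262 to 0.451 over 18 fits) and 0.01 with HA155.

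Of the genes of interferon receptors, STAT and IRF factors, 11 of 23 tested were higher with LPA than with HA155 and none was lower (13.7% and 12.4% of all genes). With HA155 4 of 23 fell and none rose (0.427% and 0.607% of all genes), among them the interferon regulator Irf7 (-1.05, limma adjusted p = 0.00223), the guanylate-binding Gbp3 (-0.98, limma adjusted p = 0.0253) and Irf9 (-0.51, limma adjusted p = 0.038). Gbp3 and Irf9 lost their calls in 5 and 9 of 18 alternative fits, each including the fits without control 1, control 2 or any 1 HA155 array, and for Irf9 also those without LPA array 7 or 9. With LPA 6 of 23 rose and none fell (12.2% and 10.8% of all genes), among them Jak2 (0.56) and the interferon-gamma receptor gene Ifngr2 (0.29), while Irf7 measured -0.08 (limma adjusted p = 0.684). Irf1, an interferon-induced transcription factor, measured 0.03 with LPA and -0.0039 with HA155. Irf7 stood 0.97 higher with LPA than with HA155 (limma adjusted p = 0.000136), whereas Cxcl9 was lower with LPA.

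Of the genes that signal below chemokine receptors, from G proteins to kinases and JAK-STAT members, 12 of 54 tested rose and 9 fell with LPA (12.2% and 10.8% of all genes), with a median of 0.07, and 0 passed with HA155 in limma (3 with an unadjusted p below 0.05). The inhibitory G protein subunit gene Gnai1 fell by 0.96 (limma adjusted p = 0.00011), the kinase Ptk2b by 0.53 and Stat5a by 0.50, while the phospholipase Plcb4 rose by 0.58 (limma adjusted p = 0.000867) and Jak2, shared with the interferon list, by 0.56.

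Markers of cells that could make or answer chemokines were read beside these results. Of 13 macrophage markers measured, 7 reached the filter and 0 were called in limma in any comparison (2, 0 and 0 with an unadjusted p below 0.05 for HA155 against control, LPA against control and LPA against HA155), and Adgre1 (F4/80) lay at 5.53 to 5.59 in the group means. Summed over all 13, intensity was 855 to 992 in control, 1093 to 1250 with HA155 and 878 to 1175 with LPA. The HA155 arrays thus lay above control, and the LPA arrays overlapped both. Any part of macrophages in the HA155 rises of Ccl9 and Cxcl13 was not tested. Neutrophil, T and NK cell, B cell, dendritic cell and mast cell or eosinophil markers reached the filter in 1 of 6, 2 of 7, 1 of 3, 1 of 5 and 1 of 5, and none of these was called. The 6 adipocyte markers summed to 18661 to 19456 in control, 19884 to 21221 with HA155 and 9232 to 10496 with LPA, and all 6 fell with LPA. The 7 preadipocyte and fibroblast markers summed to 32517 to 34147 in control, 29563 to 31909 with HA155 and 40422 to 42778 with LPA, and 6 rose with LPA. With HA155, 1 adipocyte marker rose (Cidec, 0.65, limma adjusted p = 0.000756) and 5 did not pass. Of the preadipocyte and fibroblast markers 1 fell with HA155 (Dlk1, -0.82, limma adjusted p = 0.000609) and 6 did not pass. Of 6 endothelial markers 3 were tested, of which Tek rose with LPA by 0.37 and the other 2 did not pass. Summed over all 6, they gave 369 to 390 in control, 352 to 365 with HA155 and 419 to 439 with LPA. The summed adipocyte, preadipocyte and endothelial markers thus moved beside the LPA rises in Cxcl12, Cxcl14, Ccl2 and the other ligands. Their part in those results was not tested. Of 7 brown adipocyte markers 4 reached the filter, of which 2 rose with HA155 and 3 fell with LPA. Cox7a1 and Cox8b measured 1.13 and 1.01 with HA155, and -1.84 and -1.85 with LPA. Ppargc1a measured -0.60 with LPA and did not pass with HA155 (0.17). Sums over all 7, also those under the filter, were 1100 to 1144 in control, 1970 to 2116 with HA155 and 482 to 517 with LPA. Ucp1 (5.22, 5.29 and 5.17 in control, HA155 and LPA), Dio2 (5.14, 5.16 and 5.12) and Cidea (4.92, 6.39 and 4.75), which define brown fat, lay under the filter on average, so that the labelled tissue's defining marker Ucp1 was not above it in any group.

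**Figure D5:**
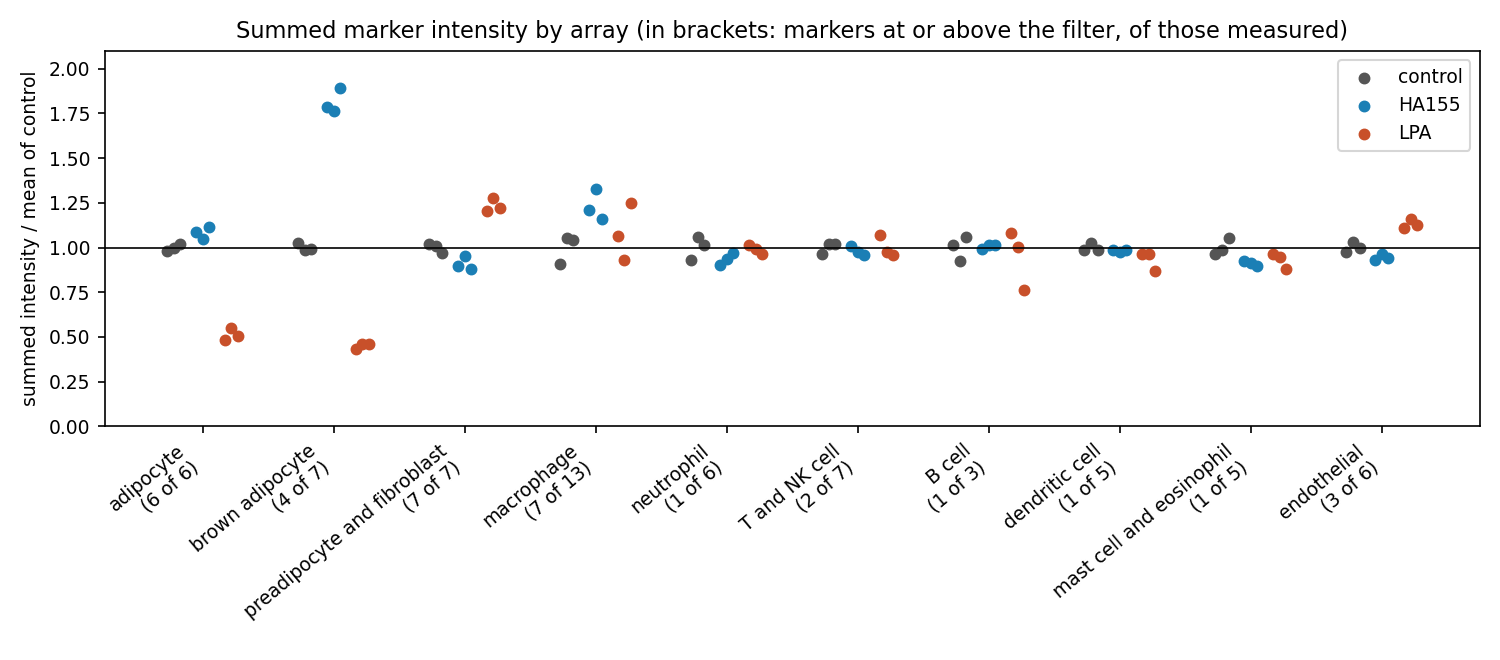
Summed linear intensity of each marker list in every array, divided by the control mean (vertical axis, starting at 0), by group. Points are arrays and brackets give how many markers reached the filter of how many measured. LPA arrays are low for adipocyte and brown adipocyte markers and high for preadipocyte and endothelial ones, and HA155 arrays are high for brown adipocyte and macrophage markers.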

How the data were processed

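RNA from each of the 9 cultures was run on an Affymetrix array for mouse genes, per the labels' protocols. For every probe set the authors deposited a linear intensity in each array. The submitters' processing notes name RMA without a version. RMA equalises the arrays' distributions, which would hide a global shift, and it compresses dim probes. Array medians ran from 70.7 to 72.8.

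The deposited intensities were turned to log2 without an offset. The annotation gave 21706 of the 35432 probe sets a single symbol, 1605 several (not used as genes), and it did not list the other 12121, which stay unnamed. The brightest probe set stood for a gene. Genes with a mean under the 40th percentile (5.59, intensity 48.2) were not tested, which left 13335. No detection calls were used. Differences were fitted with limma 3.58.1 in R 4.3.3 on all 9 arrays, with 6 residual degrees of freedom and two-sided Benjamini-Hochberg adjustment over all genes tested. The procedure was tested on simulated data. Median SDs per gene were 0.074, 0.054 and 0.11 in control, HA155 and LPA, whereas the fit assumes 1 spread. No label gives a batch, and one that ran along with treatment could not be separated from it. The design text speaks of 3 cultures per condition, whose spread the p-values reflect.

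The members and lists were chosen with earlier results of these data known. Every tested member is described; of each list, up to 5 called genes of smallest p with either compound against control were named, and a few genes whatever their values, of which some are not reported here. Promoters and gene order came from RefSeq (GRCm38.p6), since no genome build comes with the files.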

Additional observations from a re-analysis of the deposited data

How the results depend on the processing

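Of 23 calls on chemokine and receptor genes over the 3 comparisons, 19 held in all alternative fits run for them and 4 were lost at least once; those 4, and the fits that ended them, stand beside their genes. None of the 23 changed sign. Of 52 values not called, 7 passed in at least 1 alternative, and 24 changed sign in at least 1, always at a size of 0.09 or less. The 18 alternatives were no filter, a 60th percentile filter, a pseudocount of 16, renewed quantile normalization, median centring, the mean of probe sets, eBayes with trend and robust, the 6 arrays compared, array weights, and leaving out each array.

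The number of members called for HA155 against control was 3, and it became 1 with no filter, 1 with only the 6 arrays compared and 6 with array weights. Leaving out 1 array gave 0 to 4: it was 0 without control 2 in limma (7 with an unadjusted p below 0.05), 1 without HA155 array 4, 5 or 6 or LPA array 7 or 9, and 4 without LPA array 8. Over all genes that comparison gave 138 calls, 86 with no filter and 338 with array weights, and 39 (without control 2) to 232 (without LPA array 8) with 1 array left out. Members called numbered 7 to 11 for LPA against control and 8 to 12 for LPA against HA155. Fitting with no filter tests more genes, and array weights give LPA array 8 a weight of 0.25. No paired analysis was possible because the groups share no subject number.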

Other observations

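Probe sets that name several genes belong to none of the comparisons above. There were 7 that name chemokine genes, all of the Ccl21 and Ccl27 families, whose 6 symbols have no probe set of their own. The 4 Ccl21 probe sets held identical values, with means of 6.37 ± 0.06 in control, 6.31 ± 0.13 with HA155 and 6.46 ± 0.29 with LPA (SD, n = 3). The 3 Ccl27 probe sets held 2 distinct patterns, one at 7.04 ± 0.05, 7.05 ± 0.01 and 7.03 ± 0.11 and the other at 7.60 ± 0.06, 7.57 ± 0.02 and 7.59 ± 0.04 in control, HA155 and LPA (SD, n = 3). In neither family did the group means differ by more than the largest SD of its groups.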
